A study of Mus musculus with 12 samples.

Results

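The Ly6 surface antigen family was examined here through 6 of its genes, Ly6a, Ly6c1, Ly6c2, Ly6e, Ly6i and Cd59a, out of 56941 genes counted in mouse macrophages that did or did not carry the microRNA miR-210. The 6 genes were chosen by name with earlier results of these libraries known, among them the comparison of genotypes, and all 6 were found in the tables. Bone marrow monocytes of C57BL/6J mice, isolated by removing labelled erythrocytes, lymphocytes, neutrophils and dendritic cells, were grown for 7 days in medium conditioned by L929 cells, a source of the growth factor M-CSF. Resting macrophages (M0) received no further stimulus, and alternatively activated macrophages (M2) received 20 ng/mL of interleukin-4 (IL-4) for 72 hours. Wild-type (WT) and miR-210 knock-out (KO) mice came from breeding heterozygotes, whose deletion was first made by crossing floxed miR-210 mice with Gata-1 Cre mice, so that the Gata-1 promoter drove the recombinase. Each genotype was sequenced in each state, which gave 4 groups of 3 libraries. The labels do not say whether the libraries of a group came from separate mice, so the p-values below measure the spread between libraries, and each group carries a batch name of its own, so that batch and group cannot be told apart.

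Ly6 proteins share a small, disulfide-bonded fold of protruding loops, and most are held on the outer face of the plasma membrane by a glycosylphosphatidylinositol (GPI) anchor. Ly6a, known as Sca-1, marks haematopoietic stem and progenitor cells and is inducible by interferons in many other cells, and Ly6e is likewise interferon-inducible and is known for acting on virus entry. The proteins of Ly6c1 and Ly6c2 form the antigen Ly6C, which marks inflammatory monocytes and is lost as these mature into macrophages, Ly6i is a close relative of both, and Cd59a encodes CD59, an inhibitor of the membrane attack complex of complement.

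Ly6a and Ly6e were abundant in M0 macrophages and fell with IL-4 in both genotypes, Ly6a to a level close to the counting limit. Cd59a was detected at a moderate level with no IL-4 change past the test, Ly6i was found at a few counts per library, and Ly6c1 and Ly6c2 were nearly or wholly without counts. Ly6a, Ly6e and Cd59a stood lower in the KO libraries than in the WT libraries of the same state without overlap. So did 5.98% of all genes tested in M0 and 8.34% in M2, and Ly6a had only 17 KO and 53 WT counts in M2.

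Ly6e (ENSMUSG00000022587), Ly6i (ENSMUSG00000022586), Ly6a (ENSMUSG00000075602), Ly6c1 (ENSMUSG00000079018) and Ly6c2 (ENSMUSG00000022584) are protein-coding genes that follow each other on mouse chromosome 15 (GRCm39), with Ly6e on the plus strand from 74826860 to 74847454 and the others on the minus strand. Ly6i spans 74851383 to 74855279, Ly6a 74863840 to 74869880, Ly6c1 74915847 to 74920686 and Ly6c2 74980003 to 74988467. Cd59a (ENSMUSG00000032679) lies apart, on the plus strand of chromosome 2 from 103926132 to 103947029, next to its paralog Cd59b. The beginnings of 4 coding sequences from the GRCm39 transcripts are printed because the likeness of these genes bears on how their reads could be counted. Each line holds the first 120 coding bases, and capitals mark bases that differ from Ly6c2.
Ly6c2: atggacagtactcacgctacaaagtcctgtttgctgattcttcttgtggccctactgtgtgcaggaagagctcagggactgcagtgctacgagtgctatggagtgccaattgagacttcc
Ly6c1: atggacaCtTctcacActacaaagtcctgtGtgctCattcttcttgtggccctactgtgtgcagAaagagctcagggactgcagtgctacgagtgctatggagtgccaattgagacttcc
Ly6a: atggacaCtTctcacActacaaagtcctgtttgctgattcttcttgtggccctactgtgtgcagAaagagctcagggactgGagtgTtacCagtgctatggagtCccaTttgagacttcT
Ly6i: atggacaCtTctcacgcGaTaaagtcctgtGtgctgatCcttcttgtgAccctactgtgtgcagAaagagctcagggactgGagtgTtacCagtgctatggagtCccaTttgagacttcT
Within these windows Ly6c1 differed from Ly6c2 at 6 bases, Ly6a at 10 and Ly6i at 14. Over whole coding sequences, Ly6c1 and Ly6c2 were identical at 387 of 396 aligned positions (97.7%), and Ly6a and Ly6i at 350 of 405 (86.4%). Ly6e was 52.5% identical with Ly6a, and Cd59a 51.2%. Of all 50-base stretches of the longest transcript, 42.8% in Ly6c1 and 40.5% in Ly6c2 also occurred in another gene, mostly in each other. The share was 14.0% in Ly6a, 5.78% in Ly6i, 9.45% in Cd59a (all of it with Cd59b) and 0% in Ly6e, so the source of reads from shared stretches is uncertain for the members other than Ly6e.

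The 12 libraries held 7930525 to 10167695 counts, and 3 counts, the limit that a count of 0 allows, amounted to 0.295 to 0.378 CPM (counts per 1000000 counts of a library). The miR-210 gene Mir210 had 1 to 5 counts in every WT library and 0 in all 6 KO libraries. The 7 macrophage markers summed to 3589 to 4580 CPM, with Adgre1, which encodes F4/80, at 837 to 1179.5 CPM. Defining markers of several other cell types had no counts. Ly6g, the defining neutrophil gene and itself a Ly6 relative, had 0 counts in all 12 libraries, the T and NK cell genes Cd3e and Ncr1, the B cell gene Ms4a1 and the stromal gene Thy1 also had 0, and the summed neutrophil, stromal and erythroid lists reached at most 6.18, 2.50 and 4.61 CPM. The T and NK cell list reached 1.47 CPM, while the B and plasma cell list stood at 5.90 to 10.4 CPM in the 12 libraries. The dendritic cell list reached 18.0 CPM and the progenitor list 8.66 CPM. The blood monocyte list reached 43.9 CPM and the endothelial list 184 CPM, most of it in M2 from Vwf at 127 to 170 CPM.

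In proportion, Ly6a varied most among the members with more than a few counts. Its level, on a common scale of CPM over all 12 libraries, was 272, 89.3 and 189 CPM in the 3 WT M0 libraries and 46.4, 37.9 and 69.4 CPM in the 3 miR-210 KO M0 libraries. With IL-4 it stood at 3.74, 1.15 and 1.23 CPM in WT M2 and at 0.733, 0.935 and 0.249 CPM in miR-210 KO M2, which corresponds to 53 and 17 counts in all. Every M2 library lay below every M0 library, as did 29.0% of all genes tested in WT and 24.1% in KO cells. The groups descended from WT M0 over miR-210 KO M0 to WT M2 and, lowest, miR-210 KO M2, and no neighbours in this order overlapped. The steps by genotype come from a comparison known when the members were chosen. Of all genes tested, 5.98% were lower in KO without overlap in M0 and 8.34% in M2. In M2 the closest libraries held 9 counts (miR-210 KO M2 library 2) and 11 and 10 (WT M2 libraries 2 and 3), and Ly6a did not pass the filter on low counts there. In WT cells the mean fell from 183 ± 91.6 to 2.04 ± 1.47 CPM (SD, n = 3 each), 89.9-fold lower, with a log2 fold change of -6.47 ± 0.47 (± standard error for log2 values, here and below, and ± SD for CPM; adjusted p = 9.0e-08 over all genes, edgeR's quasi-likelihood test). In KO cells the mean fell from 51.2 ± 16.3 to 0.639 ± 0.352 CPM, 80.2-fold lower (log2 fold change -6.24 ± 0.35, edgeR adjusted p = 2.3e-08). Among all genes tested, only 2 of 14266 had a more negative log2 fold change in WT cells and none of 14331 in KO cells. This rank is a description only. Ly6a passed the filter on low counts through its M0 libraries, where it was high, and was chosen with earlier results known. In bulk libraries like these, fewer cells that express a gene and less of its RNA per cell cannot be told apart.

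Ly6e was the most abundant member in every library. It reached 1159.8, 754 and 1003 CPM in WT M0 and 621, 567 and 689 CPM in miR-210 KO M0. After IL-4 the values were 163, 187 and 174 CPM in WT M2 and 146.5, 140.2 and 73.5 CPM in miR-210 KO M2. The order of the groups was that of Ly6a, again without overlap of neighbours and beside the same shares of all genes. The gap between the M2 groups was small. The mean fell 5.57-fold in WT cells, from 972 ± 205 to 175 ± 11.9 CPM (log2 fold change -2.46 ± 0.13, edgeR adjusted p = 3.1e-09), and 5.21-fold in KO cells, from 626 ± 61.2 to 120.1 ± 40.5 CPM (log2 fold change -2.36 ± 0.20, edgeR adjusted p = 1.1e-06). In M2 macrophages Ly6e thus remained well counted, with 590 to 1786 counts per library, where Ly6a had 2 to 32.

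Cd59a followed genotype rather than IL-4 in its order. It was counted at 29.8, 33.8 and 35.2 CPM in WT M0 and at 31.8, 25.5 and 28.2 CPM in WT M2. In miR-210 KO M0 the libraries held 20.2, 17.2 and 15.1 CPM, and in miR-210 KO M2 17.1, 19.9 and 15.3 CPM. All 6 WT libraries lay above all 6 KO libraries, whereas M0 and M2 overlapped within each genotype. The split by genotype is a description, since that comparison was known when the members were chosen. Of all genes tested, 5.98% were lower in KO without overlap in M0 and 8.34% in M2. The share over both states together was not computed. The test of IL-4 did not call Cd59a, at -0.20 ± 0.10 on the log2 scale in WT cells (edgeR adjusted p = 0.12) and 0.02 ± 0.14 in KO cells (edgeR adjusted p = 0.93).

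Ly6i was counted 5, 2 and 5 times in WT M0 and 9, 6 and 3 times in miR-210 KO M0, against 1, 0 and 0 times in WT M2 and likewise 1, 0 and 0 times in miR-210 KO M2. These 12, 18, 1 and 1 counts did not pass the filter on low counts. The pooled M0 rate, over 30 counts, was 13.8 times the pooled M2 rate, over 2 counts, with an exact 95% interval of 3.49 to 119 that covers counting error only. The direction by state was thus that of Ly6a and Ly6e, while between genotypes in M0 the ratio of KO to WT was 1.41 (0.641 to 3.20).

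Ly6c1 had 0 counts in all 12 libraries, or 0 of 108793771 counts, which allows up to 0.0276 CPM over the series. Ly6c2 had 2 counts, both in WT M2 library 2. The share of Ly6c1 in the pair could therefore not be followed, and the pooled pair did not pass the filter on low counts in any comparison. The other blood monocyte markers moved in sum the other way from Ly6a and Ly6e. Their summed level, over 6 genes, was 10.4 to 15.0 CPM in the 6 M0 libraries and 29.9 to 43.9 CPM in the 6 M2 libraries. Of 4 tested, edgeR called 4 higher in WT and 3 in KO cells. Ccr2, the chemokine receptor of inflammatory monocytes, was called higher in both genotypes (log2 fold change 0.76 ± 0.25 in WT and 1.43 ± 0.23 in KO cells). In WT cells its states overlapped, with 8.29 CPM in M0 library 1 and 7.25 CPM in M2 library 1. The part of these markers in the results of the members was not tested.

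**Figure D1:**
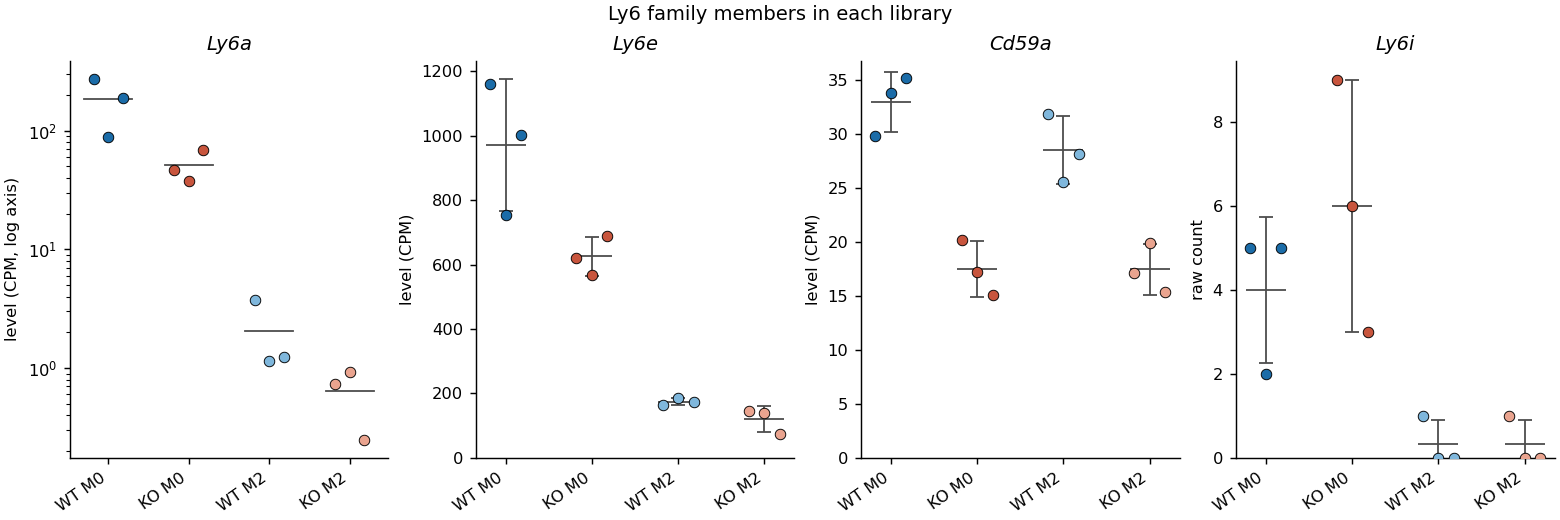
Level of Ly6a (CPM, log axis), Ly6e and Cd59a (CPM, linear axes from 0) and raw count of Ly6i in each of the 12 libraries. Points are libraries, horizontal lines are group means and bars (not drawn for Ly6a) are SDs of 3 libraries. Ly6a falls from 37.9 to 272 CPM in M0 to 0.249 to 3.74 CPM in M2, and Cd59a separates WT (25.5 to 35.2 CPM) from KO (15.1 to 20.2 CPM).

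Set against exonic length, which levels of different genes need, the order of the members changed with state. In WT M0 the mean level was 214 ± 45.0 CPM per kb for Ly6e, 39.5 ± 19.7 for Ly6a, 5.24 ± 0.44 for Cd59a and 0.388 ± 0.191 for Ly6i (SD, n = 3). In WT M2, Cd59a at 4.54 ± 0.50 CPM per kb had passed Ly6a at 0.439 ± 0.317, and Ly6e remained on top at 38.3 ± 2.62. The KO groups had the same orders, with 137 ± 13.4, 11.03 ± 3.51 and 2.78 ± 0.41 CPM per kb for Ly6e, Ly6a and Cd59a in M0 and 26.4 ± 8.89, 0.138 ± 0.0758 and 2.78 ± 0.37 in M2. Neighbours in these orders did not overlap between libraries, except for Ly6a (0.0536 to 0.201 CPM per kb) and Ly6i (0 to 0.106) in miR-210 KO M2.

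Of the 6 members, 3 could be tested for IL-4 in each genotype, and 2 of them, Ly6a and Ly6e, fell. Across all genes tested, 17.0% were called lower in WT cells and 14.0% in KO cells, and 18.4% and 14.3% were called higher. The median log2 fold change of the 3 tested members was -2.46 in WT and -2.36 in KO cells, where that of all genes was 0.00 and -0.01. This median is the value of Ly6e itself and a description only. The members were chosen with earlier results known, Ly6a passed the filter through its M0 libraries, and Cd59a was not called. The 3 untested members had too few counts. Whether the response to IL-4 differed between genotypes was asked by the interaction of genotype and state over all 12 libraries. This difference of log2 fold changes was 0.24 ± 1.36 for Ly6a (edgeR adjusted p = 0.98), 0.11 ± 0.26 for Ly6e (adjusted p = 0.94) and 0.23 ± 0.18 for Cd59a (adjusted p = 0.75). Called genes made up 0.00% of the 14825 tested by edgeR, 1327 had an unadjusted p under 0.05, and DESeq2 called 92 genes (0.621%) with none of the members among them. No tested member had an unadjusted p under 0.05 in this test. Few reads of Ly6a were left in M2, which limits what this test could detect. All edgeR standard errors given were derived from the log2 value and its test statistic. The error of Ly6a in the interaction was wider than the errors of its IL-4 falls, 0.47 in WT and 0.35 in KO cells, and the cause of this width was not tested.

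**Figure D2:**
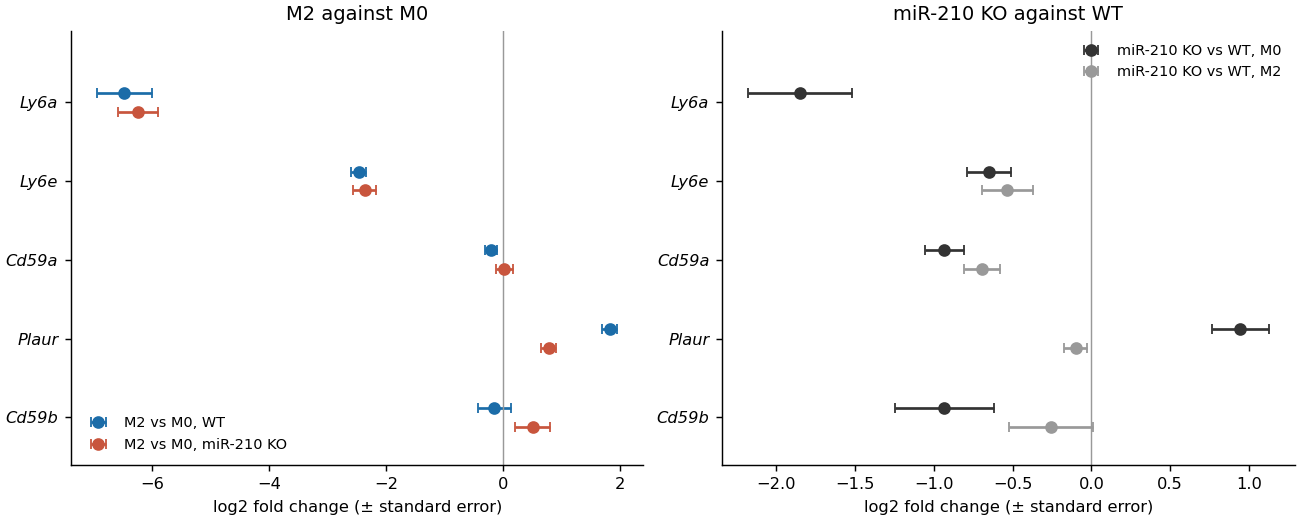
Log2 fold changes with standard errors from edgeR for the tested members and their relatives Plaur and Cd59b, for M2 against M0 (left) and miR-210 KO against WT (right). Ly6a and Ly6e lie left of 0 at similar values in both genotypes on the left, from -6.47 to -2.36, and on the right Ly6a has no point in M2 because it did not pass the filter on low counts.

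The comparison of genotypes had been seen when the members were chosen, so its values and calls are a description of these libraries, no p is given, and nothing is read from how many members were called. In M0, KO libraries were lower than WT libraries without overlap for Ly6a, Ly6e and Cd59a, as were 5.98% of all genes tested. The log2 fold change of KO against WT in M0 was -1.85 ± 0.33 for Ly6a, -0.65 ± 0.14 for Ly6e and -0.93 ± 0.12 for Cd59a. The call rule took Ly6a and Cd59a, 2 of the 3 tested members, as lower, and 0.241% of all genes tested, a share printed only as the background of a comparison already known. These calls depended on single libraries. Without WT M0 library 3 no member was called, and without WT M0 library 1, miR-210 KO M0 library 1 or miR-210 KO M0 library 2 Cd59a alone was called, 1 member in place of 2. Leaving out 1 library at a time, the log2 fold change of Ly6a ran from -2.17 to -1.46 and that of Cd59a from -1.05 to -0.84. Some markers of other cells also lay apart by genotype in M0. Ccr2, a receptor of blood monocytes, was at 1.64 to 2.50 CPM in KO and 3.92 to 8.29 CPM in WT libraries. The summed blood monocyte list that holds it overlapped, at 10.4 to 14.0 CPM in KO and 12.4 to 15.0 CPM in WT libraries. The summed endothelial list was at 33.4 to 33.9 CPM in KO against 36.5 to 49.6 CPM in WT, and the erythroid list at 0.223 to 0.483 against 0.502 to 3.70 CPM. The stromal list was higher in KO, at 1.83 to 2.50 against 1.11 to 1.34 CPM, and the part of these markers in the differences of the members was not tested.

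In M2, KO libraries were again lower than WT libraries without overlap for all 3 genes, as were 8.34% of the genes tested. Cd59a, at -0.69 ± 0.12 on the log2 scale, was the 1 member taken as lower by the call rule, as were 0.572% of all genes, again as a description. Ly6e stood at -0.53 ± 0.16 and was not called, but without miR-210 KO M2 library 3, its lowest library at 73.5 CPM, it was called at -0.28, which makes 2 members. Ly6a did not pass the filter on low counts. Its 17 KO counts against 53 WT counts gave a ratio of 0.326 (exact 95% interval 0.177 to 0.571, counting error only), and without WT M2 library 1, which held 32 of the WT counts, the ratio was 0.554 (0.274 to 1.10). Ccr2 was at 5.49 to 5.98 CPM in KO and 7.25 to 10.7 CPM in WT M2 libraries. The summed blood monocyte list again overlapped, at 29.9 to 37.7 CPM in KO and 32.2 to 43.9 CPM in WT. The neutrophil list was at 1.47 to 2.29 CPM in KO against 2.92 to 6.18 CPM in WT, and the progenitor list at 5.82 to 7.72 against 7.87 to 8.66 CPM. The B and plasma cell list was higher in KO, at 6.98 to 7.89 against 5.90 to 6.38 CPM. Their part in the differences of the members was not tested.

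Since Ly6a and Ly6e are known interferon-stimulated genes, their levels were set beside 31 other such genes. All 31 were measured, and with IL-4 29 of 31 tested were called lower and 0 higher in WT cells, 28 of 30 lower and 1 higher in KO cells, where the exception was Gbp2 at a log2 fold change of 0.45. Over all genes tested, 17.0% were called lower and 18.4% higher in WT cells, and 14.0% and 14.3% in KO cells. The median log2 fold change of the list was -1.42 in WT and -1.30 in KO cells, where that of all genes was 0.00 and -0.01. The largest falls in WT cells were those of Ifit3b (-5.91 ± 0.28), the GTPase gene Iigp1 (-4.59 ± 0.30) and Ifit3 (-4.56 ± 0.19), all smaller in size than that of Ly6a at -6.47. In M0, 3 of 30 tested were called lower in KO cells, Iigp1 (-1.37 ± 0.24), Isg15 (-0.89 ± 0.14) and Ifi44 (-0.88 ± 0.16), beside 0.241% of all genes tested. The list median was -0.44, where that of all genes was 0.00. At an unadjusted p under 0.05 there were 26, and DESeq2 called 15, so the count rests on the tool. In M2, 0 of 30 were called by edgeR or DESeq2 and 9 had an unadjusted p under 0.05 in edgeR, with a list median of -0.19.

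Within each group the summed level of the 31 genes ranked the libraries as Ly6e did, and within the M0 groups also as Ly6a did. The sum was 9085, 6030 and 7949 CPM in WT M0 libraries 1 to 3 and 5921, 5323 and 6243 CPM in miR-210 KO M0. WT M0 library 2, the lowest of its group for the list, for Ly6a and for Ly6e, thus lay within the range of the KO libraries for the list but above it for Ly6a and Ly6e. In M2 the sums were 1917, 2103 and 2037 CPM in WT and 1989, 1962 and 1440 CPM in KO, where miR-210 KO M2 library 3 was the lowest for the list, for Ly6a and for Ly6e. WT M2 library 1 was the lowest of its group for the list but the highest for Ly6a, at 3.74 CPM against 1.15 and 1.23 CPM. Cd59a was not lowest in WT M0 library 2, at 33.8 CPM the middle value of its group. It was lowest, at 29.8 CPM, in WT M0 library 1, where the list was highest. In miR-210 KO M2 library 3 Cd59a too was the lowest, at 15.3 CPM. Without WT M0 library 2 the log2 fold changes of KO against WT in M0 were -2.17 for Ly6a, -0.79 for Ly6e and -0.91 for Cd59a. The part of the interferon-stimulated genes' shared variation in the differences of the members was not tested.

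**Figure D3:**
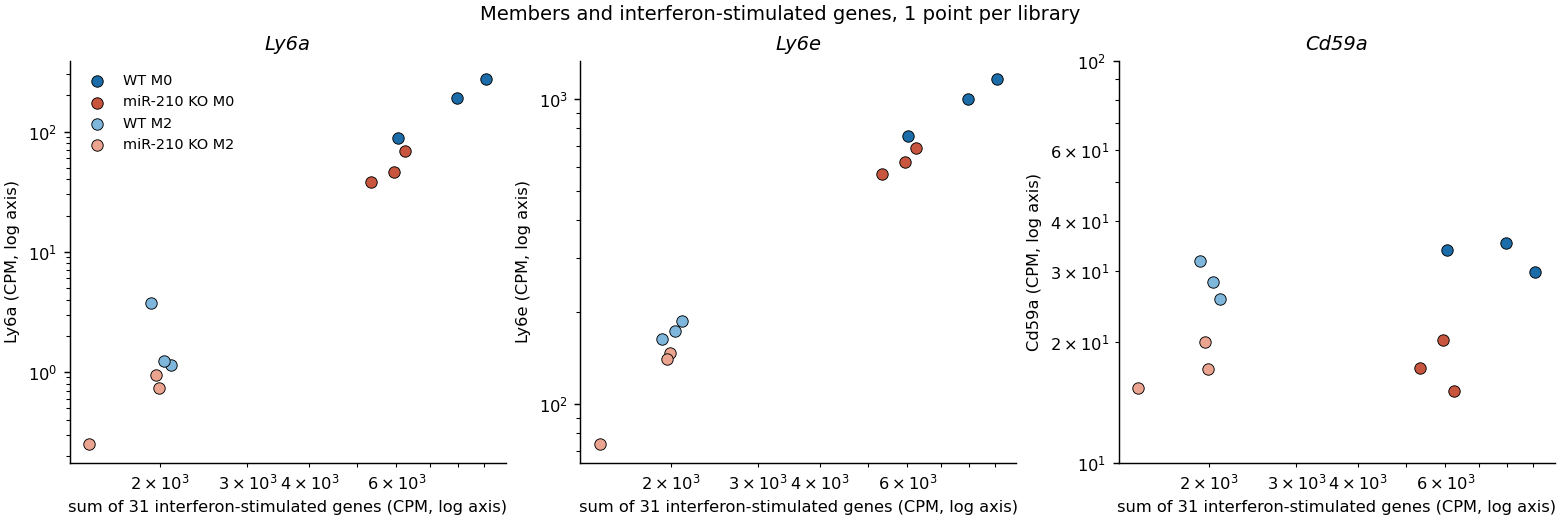
Level of Ly6a, Ly6e and Cd59a against the summed level of 31 interferon-stimulated genes (CPM, log axes) with 1 point per library. WT M0 library 2 lies at a sum of 6030 CPM, beside the 3 miR-210 KO M0 libraries at 5323 to 6243 CPM, and Cd59a is split by genotype at every sum.

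Genes with the pattern most like that of each member were sought among 11197 protein-coding genes with a mean over 1 CPM, by Pearson's r of log2(CPM + 1) over 12 libraries. For Ly6a these were Iigp1 (r = 0.998), Oasl1 (0.991) and Tgtp2 (0.991), and for Ly6e Ifi44 (0.998), Oasl2 (0.996) and Slfn5 (0.996). Mtus2 (0.927), Dynlt1b (0.903) and Efcab7 (0.884) came first for Cd59a. All points share the split between M0 and M2 and the same depth per library, so the ranking was repeated on deviations from the group means. There Mpp1 (0.953), Iigp1 (0.940) and Nat9 (0.933) came first for Ly6a, Zbp1 (0.985), Ifi27l2a (0.984) and Gm5431 (0.979) for Ly6e, and Dpagt1 (0.883), Fam151b (0.881) and Wtip (0.880) for Cd59a. Iigp1 was thus the gene named for Ly6a on both measures.

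Of 45 other genes of the Ly6 superfamily listed, 44 were matched, 26 had 0 counts in all 12 libraries and 16 never passed 12 counts in a library. Only Plaur, which encodes the urokinase receptor and carries 3 Ly6 domains, and Cd59b could be tested. Plaur stood at 19.4, 31.3 and 26.5 CPM in WT M0, 51.7, 39.3 and 60.0 CPM in miR-210 KO M0, 89.5, 86.0 and 100.2 CPM in WT M2 and 81.4, 87.2 and 88.0 CPM in miR-210 KO M2. It thus rose with IL-4 where Ly6a and Ly6e fell, with log2 fold changes of 1.83 ± 0.13 in WT (edgeR adjusted p = 6.5e-08) and 0.78 ± 0.13 in KO cells (adjusted p = 3.8e-04). In M0 its KO libraries lay above its WT libraries without overlap, as did 9.0% of all genes tested, at a log2 fold change of 0.94 ± 0.18. EdgeR did not call it on the 6 M0 libraries (adjusted p = 0.052), but DESeq2 did, as did edgeR over all 12 libraries, with the replicate block, without the filter on low counts, and without WT M0 library 2 or miR-210 KO M0 library 2, and the adjusted p ran from 1.8e-13 to 0.23 over the alternatives. The difference between its responses to IL-4 was -1.05 ± 0.20 and did not pass the threshold in edgeR (adjusted p = 0.095). It did in DESeq2, in edgeR without the filter on low counts, and without WT M0 library 2 (edgeR adjusted p = 0.012) or miR-210 KO M0 library 2 (0.013), and the adjusted p ran from 8.6e-12 to 0.26 over all alternatives. Cd59b, the testis-enriched paralog of Cd59a, was counted at 1.45 to 4.21 CPM, or 13 to 33 counts, and was not called by edgeR in any comparison. Its KO libraries in M0 were below its WT libraries without overlap, at 1.45 to 1.60 against 2.17 to 4.21 CPM, as were those of 5.98% of all genes tested. In M2 its libraries overlapped, at 1.59 to 2.74 CPM in KO and 2.22 to 3.07 CPM in WT, where those of Cd59a did not.

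Around the chromosome 15 cluster few other genes were expressed. Of 25 other protein-coding genes within 500 kb of a member, 20 had a mean under 0.1 CPM and 4 passed the filter on low counts. By edgeR, none of the 4 was called with IL-4 in WT cells, with 0 at an unadjusted p under 0.05, and 1, Jrk, was called higher in KO cells, where 2 had such a p. The nearest tested neighbours were Them6 on one side, with a log2 fold change of 0.12 in WT and 0.50 in KO cells, and Zfp41 on the other, with -0.01 and 0.09, neither of which was called. Around Cd59a, 8 of 10 neighbours were tested and 0 were called between genotypes by edgeR in either state, with 2 in M0 and 1 in M2 at an unadjusted p under 0.05. The nearest on each side, Cd59b and Hipk3, had log2 fold changes of KO against WT of -0.93 and 0.08 in M0 and of -0.26 and 0.01 in M2.

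**Figure D4:**
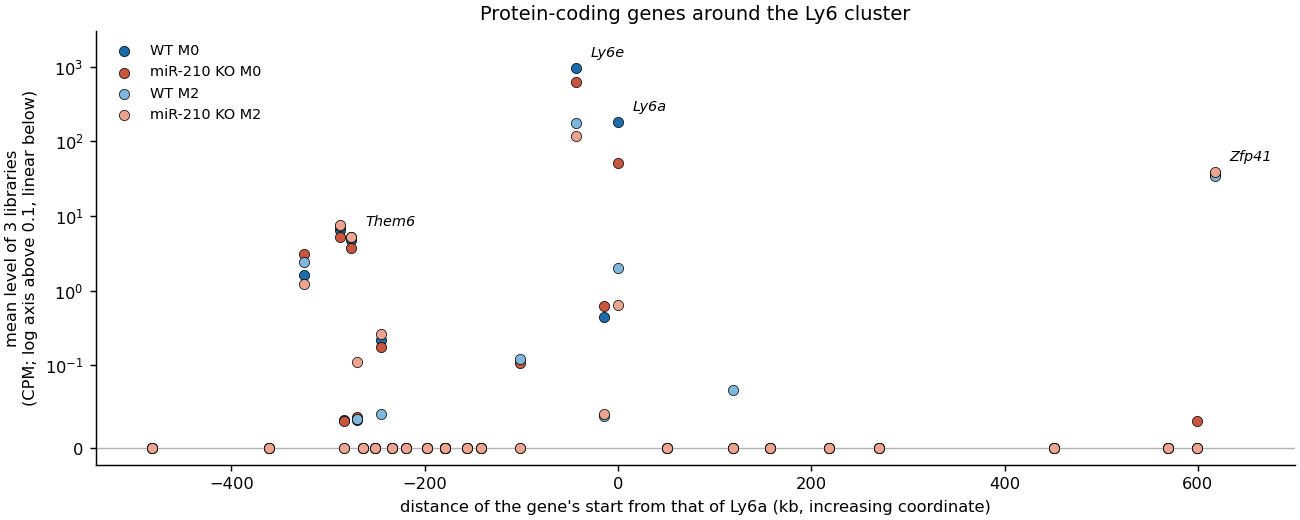
Mean level of the protein-coding genes around the Ly6 cluster (CPM, 3 libraries a group, log axis above 0.1 and linear below) by distance of each gene's start from that of Ly6a in kb. Ly6e and Ly6a rise above a row of genes at or near 0 CPM, and Them6 and Zfp41 are the nearest tested neighbours.

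The mature microRNA that the KO mice lack and the promoter of Cd59a, the well-counted member whose promoter was analysed here, are printed for a search of short motifs. The microRNA is given from RefSeq (GRCm38.p6, chr7:141221407-141221428, minus strand) with its seed, bases 2 to 8, in capitals, and the promoter from RefSeq (GRCm38.p6, chr2:104095551-104095850, plus strand) with motif matches in capitals.
miR-210-3p: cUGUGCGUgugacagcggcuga
Cd59a promoter: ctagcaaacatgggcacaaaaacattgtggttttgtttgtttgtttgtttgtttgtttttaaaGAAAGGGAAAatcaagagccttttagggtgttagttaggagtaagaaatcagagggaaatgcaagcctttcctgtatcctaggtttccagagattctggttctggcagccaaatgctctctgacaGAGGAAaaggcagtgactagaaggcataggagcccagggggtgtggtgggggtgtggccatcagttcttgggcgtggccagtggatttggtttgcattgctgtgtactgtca
The match to the seed, ACGCACA, was absent from the annotated 3' UTRs of all 6 members, and 10.2% of 11326 tested genes with such a UTR held one. The promoter window, 250 bases before to 50 after the start, held 1 match to the interferon-stimulated response element (GAAA, any 2 bases, GAAA) and 1 to the ETS and PU.1 core GAGGAA, which do not overlap, and none to the STAT motifs TTCNNNGAA and TTC, any 4 bases, GAA on either strand. Of 32851 mouse promoters, 3.44% held the first, 28.3% the second, 8.30% the third and 6.95% the fourth. The promoters of Ly6c1 and Ly6c2 matched GAGGAA alone, and those of Ly6a, Ly6e and Ly6i were not analysed here.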

How the data were processed

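RNA of 12 macrophage libraries was sequenced after ribosomal RNA depletion as stranded paired-end reads. Per the labels and the study's methods, the authors trimmed reads with Trimmomatic, removed duplicate reads with Picard, aligned to GRCm39 with STAR and counted reads per gene with featureCounts, using strand. Removing duplicates can lower the counts of abundant genes, and its effect was not tested. The deposited tables hold raw counts per gene, and a second set of deposited tables holds the same counts divided by DESeq2 size factors of each pair of groups (a normalized signal), used here for 1 alternative. The tables repeat libraries, and shared columns were identical. Libraries are numbered as their columns are, 1 to 3 within a group.

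Gene IDs were matched to GENCODE (GRCm39), 56323 of 56941. Counts were tested with edgeR 4.0.16 (R 4.3.3), TMM scaling, the filterByExpr filter and quasi-likelihood fits on the 6 libraries of each pair of groups, or on all 12 for the interaction, with Benjamini-Hochberg adjustment over all genes tested. Calls needed an adjusted p below 0.05 with an absolute log2 fold change above 0.263 (a 1.2-fold change), for IL-4 also if protein-coding with an average over 10 normalized counts, and for the interaction at any fold. Scripts were tested on simulated data. Libraries of a group differed beyond sampling noise. DESeq2 1.42.0, other scalings, filters and single libraries left out were alternatives.

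The members and gene lists were chosen with earlier results of these data known. All members are named, and of each list the genes called, at most 3 a comparison by size of fold, the defining cell type genes, the 3 genes most like each member and the nearest tested neighbours. Jrk and Gbp2, each a single exception in its count, were named after their values were seen.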

Additional observations from a re-analysis of the deposited data

How the results depend on the processing

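The fall of Ly6a and Ly6e with IL-4 was called in both genotypes, 2 members each, under every alternative run, with leave-one-out log2 fold changes of -7.24 to -6.09 and -2.62 to -2.33 in WT and of -6.65 to -5.90 and -2.52 to -2.12 in KO cells. No member was called for the interaction under any of them. Members called lower in KO cells were less stable. In M0 there were 1 with the log2 limit at 1 and 0 to 3 with single libraries left out. In M2 there were 0 with the limit at 1, 3 without the filter on low counts and 1 to 2 with single libraries left out. In M0, DESeq2 and the fit without the filter called 3, adding Ly6e, and over all genes DESeq2 called 218 in M0 where edgeR called 65. The numbers 1 to 3 are column numbers that the labels do not tie to samples, and same-numbered libraries did not deviate together (correlations of -0.27 to 0.34 over the 4 comparisons). With that number as a replicate block, 3 members were called in M0 and 2 in M2. Leaving out 1 library turned the sign of uncalled values, which ranged from -0.10 to 0.14 for Cd59a with IL-4 in KO cells, from -0.33 to 0.15 for Cd59b with IL-4 in WT cells, and from -0.16 to 1.00 for Ly6a and -0.056 to 0.35 for Ly6e in the interaction. Ratios of mean levels changed by less than the spread between libraries with RLE size factors or the deposited normalized counts. Summing Ly6c1 and Ly6c2 gave no value, since the sum did not pass the filter. The causes of these changes were not tested. Depth limits Ly6a in M2 and Ly6i, Ly6c1 and Ly6c2 throughout.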

Other observations

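Most Ly6 proteins and CD59 need a GPI anchor, and the genes that assemble and remodel it were set beside the members. All 31 listed were measured, with summed levels of 1221 to 1296 CPM over the 12 libraries, and 0 of 30 tested were called between genotypes by edgeR or DESeq2 in M0 or in M2, with 2 in each state at an unadjusted p under 0.05 in edgeR. With IL-4, 3 were called higher and 6 lower in WT cells, and 2 higher and 4 lower in KO cells, beside 18.4% and 17.0% of all genes in WT and 14.3% and 14.0% in KO cells. The largest changes were those of Pgap6, a GPI-specific phospholipase (log2 fold change -1.51 ± 0.14, with its standard error, in WT and -1.01 ± 0.09 in KO), Pgap2, which takes part in remodelling the anchor's lipid (1.16 ± 0.09 and 1.05 ± 0.08), and Pigv, a mannosyltransferase (-1.05 ± 0.10 and -0.86 ± 0.11).

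Other regulators of complement were compared with Cd59a. Of 10 genes measured, 4 were tested, and 0 were called between genotypes by edgeR or DESeq2 in either state, 0 also at an unadjusted p under 0.05, where Cd59a stood at -0.93 and -0.69. Cd55, which encodes the decay-accelerating factor, another GPI-anchored regulator, was at 14.8 to 26.9 CPM in the 6 M0 libraries and 2.12 to 3.69 CPM in the 6 M2 libraries. It fell with IL-4, with a log2 fold change of -2.84 ± 0.24 in WT (edgeR adjusted p = 4.2e-07) and -3.08 ± 0.17 in KO cells (adjusted p = 2.1e-08), whereas Cd59a was not called. Cr1l, which encodes the membrane regulator Crry, was called higher with IL-4 in KO cells (M2 against M0, log2 fold change 0.33 ± 0.08).

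The 10 IL-4 response genes summed to 1586 to 2114 CPM in M0 and 7107 to 7584 CPM in M2, and 9 of 9 tested were called higher in both genotypes, among them Retnla, Chil3 and Pdcd1lg2. Between genotypes in M0, 5 of the 10 were tested, and 1, Arg1, was called higher in KO cells (0.85 ± 0.15), as were 31 of 14089 genes tested. The summed list overlapped there, at 1586 to 1894 CPM in KO and 1610 to 2114 CPM in WT libraries. The endothelial list rose in sum from 33.4 to 49.6 CPM in M0 to 139 to 184 CPM in M2, where Vwf alone stood at 127 to 170 CPM. The list did not rise as a whole. With IL-4, 2 of its genes were tested in each genotype, and edgeR called 1 higher and 1 lower. The dendritic cell gene Zbtb46 and the progenitor gene Gata2 rose with IL-4 in both genotypes, while summed T and NK and B cell markers reached at most 1.47 and 10.4 CPM.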
